A study of Mus musculus with 9 samples.

Results

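The genes described here are 9 that build the machinery of inflammatory cell death: Nlrp3, Aim2, Pycard, Casp1, Casp4, Casp8, Gsdmd, Ripk3 and Mlkl. They were taken by name from a platform annotation that pairs array features with gene symbols, and they make up 9 of the 19938 genes with a feature of their own. RNA came from conventional dendritic cells (cDC), sorted out of spleens of 129SvEv/Tac mice, and was measured on 9 Affymetrix gene arrays. A single array held resting wild-type (WT) cDC1, the subset that cross-presents antigen to CD8 T cells. The other arrays held cDC2, which mostly serve CD4 T cells as presenters of antigen, with 2 arrays in each of 4 groups: activated and resting cells of Batf-/- Batf3-/- mice (DKO), and activated and resting cells of WT mice. Batf and Batf3 code for AP-1 family transcription factors that pair with IRF4 and IRF8. After the sort, activated cells received 100 ng/ml IFN-gamma for 1 h, followed by 1 µg/ml E. coli LPS for another stretch of 3 h. Whether resting cells were held in culture for that time is not stated, and neither is whether a group's arrays stand for different mice, so the p-values measure a spread that may be technical. The labels give null alleles of both genes with no cell type named, so a change within cDC2 and one that arose in other cells cannot be told apart.

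Inflammasomes are protein platforms that assemble when a sensor meets a danger signal. NLRP3 senses membrane damage and ion loss, and AIM2 binds DNA in the cytosol. Each recruits the adaptor ASC, coded by Pycard, which gathers and activates caspase-1. Mouse caspase-11, coded by Casp4, binds LPS in the cytosol by itself. Both caspases cut gasdermin D, coded by Gsdmd, whose fragment forms pores and ends in pyroptosis, and caspase-1 also matures IL-1beta and IL-18. Caspase-8 starts apoptosis below death receptors and holds back necroptosis, in which the kinase RIPK3 activates MLKL and MLKL ruptures the membrane. Inflammasome genes are known to be primed by Toll-like receptor and interferon signals, and the activity of their proteins is set by later steps that a transcript level does not show. Mice related to this strain are known to carry a Casp4 mutation that disrupts the protein, and a transcript level says nothing of that.

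All 9 members had 1 array feature (a transcript cluster, the probes of 1 gene locus) and all 9 entered the test. A gene was tested if its mean passed a log2 intensity of 5.94, the median over all features with 1 symbol, in at least 1 group. That rule passed 10728 genes. Of the members, 7 were above this brightness on all 9 arrays, while Nlrp3 and Mlkl were above it on 7 of 9. Values below are log2 intensities, so a difference of 1 is a doubling, and differences are given with their standard error (SE) from limma, with p-values adjusted by Benjamini-Hochberg over all genes tested and 0.05 as the threshold. Intensities of different genes come from different probes and are not set against each other.

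Replicate arrays of a cDC2 group correlated at r = 0.969 to 0.980 over all genes (genes do not count as replicates). The targeted genes went with the labels: Batf lay between 5.31 and 5.44 on the 4 DKO arrays, against 6.74 to 9.07 on the 4 WT cDC2 arrays, and Batf3 between 6.43 and 7.17 on the DKO arrays, against 7.58 to 9.92 on the WT cDC2 arrays. Where their probes lie relative to the deleted parts is not known. Of 12 cDC2 markers, 8 passed the brightness threshold in at least 1 group, while Itgam, Clec4a4, Cd209a and Clec10a did not. Of all 19938 genes, 10728 passed by the same rule. Mgl2 passed through WT cDC2 alone, and Flt3 was highest on the cDC1 array (10.02). The cDC1 markers Xcr1 and Clec9a read 9.33 and 8.67 on the cDC1 array, against 4.42 to 4.73 and 3.64 to 4.32 on the cDC2 arrays. The mean of the 9 cDC1 markers with a feature was 8.66 in cDC1, against 6.16 to 7.05 on the cDC2 arrays. Irf8 and Tlr3 did not stand clear. Irf8 read 9.94 in cDC1, against 11.67 to 12.27 on the activated cDC2 arrays, and Tlr3 read 6.35, against up to 7.03 in cDC2. Markers of B cells (1 of 7), T cells (2 of 7), NK cells (1 of 8) and erythroid cells (0 of 2) rarely passed the threshold, and those of macrophages (7 of 11), monocytes (5 of 8), neutrophils (5 of 11) and plasmacytoid dendritic cells (4 of 6) did so more often. As a mean over its genes, the macrophage list lay between 6.25 and 6.59 and the monocyte list between 6.17 and 6.92 over the 9 arrays. The neutrophil list lay between 5.78 and 6.04 and the plasmacytoid list between 6.93 and 7.92. Their part in the results was not tested.

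Arrays that share a replicate number also shared deviations from their group means, with correlations across genes of 0.454 to 0.695 over the 6 pairs of cDC2 groups. Fits with the replicate number as a block are therefore given beside results whose call or count they change. A further list, 23 interferon-stimulated genes such as Ifit1 and Mx1, set the array of WT resting replicate 2 apart. The mean log2 intensity of that list was 11.07 there, against 9.78 for WT resting replicate 1, 9.24 and 9.49 in DKO resting cells and 11.13 to 11.57 on the 4 activated arrays. This array stood near the activated ones for that list, so the members' differences against resting WT cells that rest on it are also given without it. In bulk samples such as these, fewer cells of a type and less RNA per cell cannot be told apart.

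**Figure D1:**
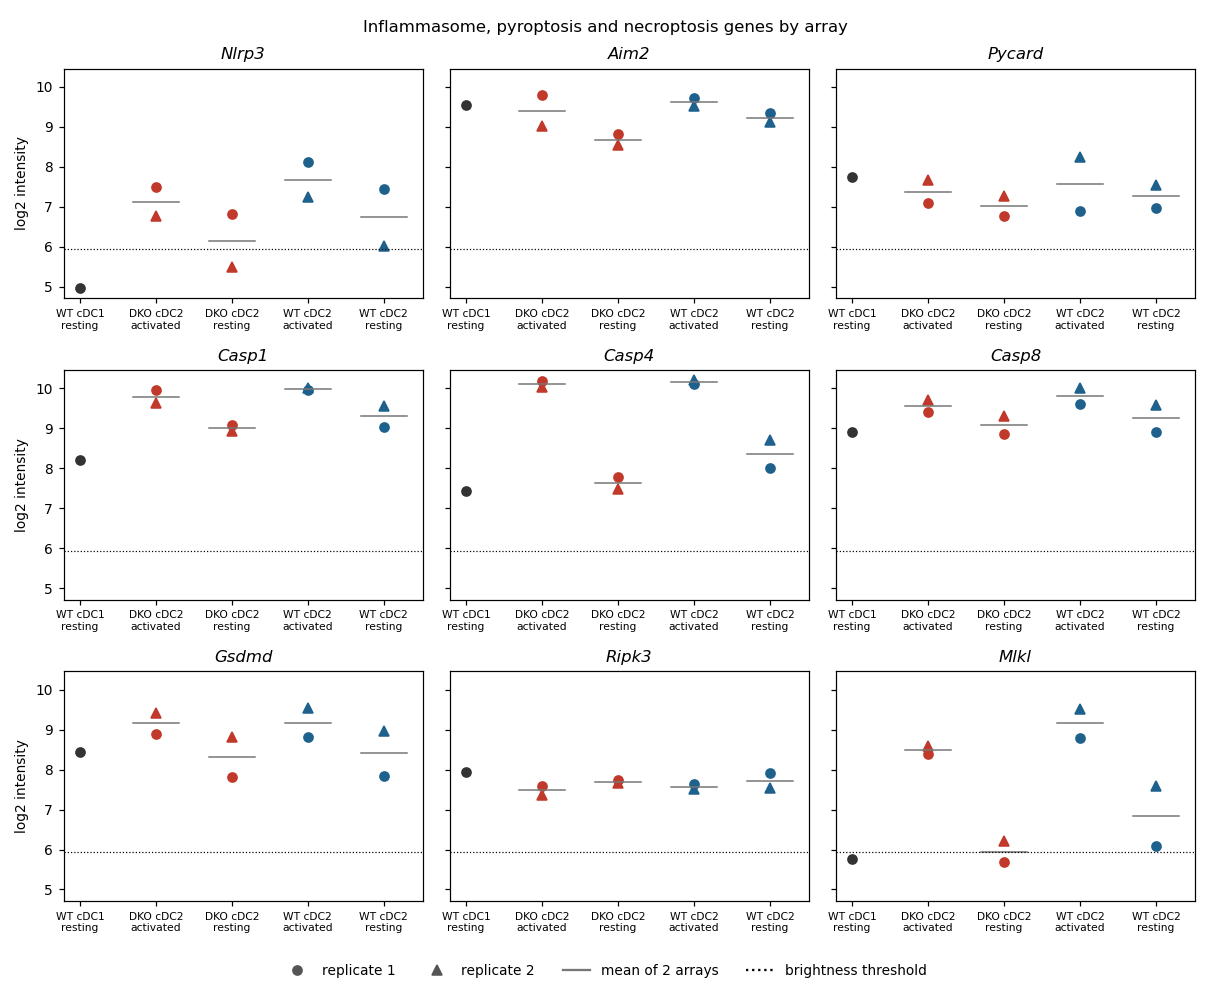
Log2 intensity (y axis) of the 9 genes in each group (x axis), 1 panel per gene; circles are replicate 1, triangles replicate 2, grey lines the mean of 2 arrays and the dotted line the brightness threshold of 5.94. Casp4 and Mlkl show the widest gaps between activated and resting cDC2, Ripk3 stays between 7.36 and 7.94 on all 9 arrays, and the triangle lies above the circle in all 4 cDC2 groups for Pycard, Casp8, Gsdmd and Mlkl.

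The promoter windows of the 3 members that passed the activation test are shown, Casp4 and Mlkl in both genotypes and Casp1 in DKO cells alone. Each window is the 250 bases before a RefSeq start of its gene (assembly GRCm38.p6, from another mouse strain), printed 5′ to 3′ on the strand of the gene. For Mlkl that start lies inside the gene's span (chr8:111311255-111338479), so its window is not the sequence before the whole gene. Capitals mark matches, on either strand, to the NF-kappaB motif (GGG, then any 3 bases, then TTCC). Casp4 lies at chr9:5308599-5308848 on the plus strand, Casp1, its neighbour, at chr9:5298267-5298516 on the plus strand, and Mlkl at chr8:111338206-111338455 on the minus strand.
Casp4: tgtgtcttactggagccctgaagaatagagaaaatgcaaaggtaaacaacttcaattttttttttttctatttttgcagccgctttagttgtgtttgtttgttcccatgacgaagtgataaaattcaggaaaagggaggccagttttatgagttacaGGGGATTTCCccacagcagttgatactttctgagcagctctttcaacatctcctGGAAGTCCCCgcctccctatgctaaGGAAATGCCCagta
Casp1: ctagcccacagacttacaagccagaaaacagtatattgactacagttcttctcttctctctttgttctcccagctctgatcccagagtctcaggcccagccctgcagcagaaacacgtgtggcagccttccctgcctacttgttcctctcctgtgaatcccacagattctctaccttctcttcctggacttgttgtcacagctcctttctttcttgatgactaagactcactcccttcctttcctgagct
Mlkl: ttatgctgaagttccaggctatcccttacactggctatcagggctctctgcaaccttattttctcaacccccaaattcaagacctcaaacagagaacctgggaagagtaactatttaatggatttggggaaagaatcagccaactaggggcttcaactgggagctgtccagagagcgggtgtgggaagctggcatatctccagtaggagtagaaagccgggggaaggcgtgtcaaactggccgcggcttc
The Casp4 window held 3 matches, which began at positions -93, -39 and -14 relative to the start and did not overlap each other, while the Casp1 and Mlkl windows held none. RefSeq windows of 300 bases (250 before and 50 after the start) were matched for 8 of the 9 members, with 10 windows in all. Gsdmd was not matched. The windows of Mlkl, Casp8 and Aim2 lay inside the spans of their genes, as did a further window of Nlrp3. Only the 2 overlapping windows of Casp4 held the NF-kappaB motif, which occurs in 5.56% of all 32851 windows. Sought in the same way, 4 other motifs were found in 0 of the 10 windows. They were the interferon-stimulated response element (GAAA, any 2 bases, GAAA; in 3.44% of all windows), the STAT motif TTCNNNGAA (8.3%), the AP-1 motif TGANTCA (7.81%) and the composite of an IRF and an AP-1 site (GAAA directly before TGANTCA, 0.125%). These are letters in a window and not sites of binding.

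The first question was how these genes respond to IFN-gamma and LPS in cDC2 with and without BATF and BATF3. Casp4 and Mlkl rose in both genotypes, Casp4 by 5.57-fold in DKO and 3.51-fold in WT cells and Mlkl by 5.85-fold in DKO and 4.97-fold in WT cells, and Casp1 rose in DKO cells. In DKO cells 3 of 9 members were higher and 0 lower past the threshold, where 5.82% of all genes tested were higher and 7.90% lower (13.7% in either direction). In WT cells 2 of 9 were higher and 0 lower, where 3.97% of all genes were higher and 6.57% lower (10.5% in either direction). Higher genes made up 37.7% of those WT calls, and 49.0% under quantile normalization. The activated arrays lay wholly above the resting ones for 6 members in DKO cells (21.0% of all genes) and for 5 in WT cells (19.9%), and wholly below them for Ripk3 in DKO cells (39.3%). Estimates were above 0 for 8 members in each genotype, as for 38.5% of all genes in DKO and 39.8% in WT cells, and the median over the 9 members was 0.79 in DKO and 0.68 in WT cells, against medians of -0.09 and -0.07 over all genes. With the replicate number as a block, 7 members passed in DKO cells and 6 in WT cells, again all higher, where 13.0% and 11.4% of all genes were higher and 38.0% and 35.3% passed. Activated and resting arrays that share genotype and replicate number form 4 pairs. In both DKO pairs each member except Ripk3 was higher after activation, as were 28.5% of all genes. In both WT pairs each member except Ripk3 and Pycard was higher, as were 29.4% of all genes.

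Nlrp3, the sensor of membrane damage (transcript cluster 10376513), read 7.49 and 6.76 (replicates 1 and 2) in activated DKO cells, against 6.82 and 5.48 in resting DKO cells. In activated WT cells it read 8.13 and 7.24, against 7.44 and 6.03 in resting WT cells. Replicate 1 was the higher array of every group, and the activated and resting arrays overlapped in both genotypes. The difference was 0.97 ± 0.64 in DKO (adjusted p = 0.345) and 0.95 ± 0.64 in WT cells (adjusted p = 0.368), and neither passed. With 1 array left out the difference lay between 0.31 (without DKO resting replicate 2) and 1.64 (without DKO resting replicate 1) in DKO cells and between 0.24 (without WT resting replicate 2) and 1.65 (without WT resting replicate 1) in WT cells. With the replicate block the SE shrank to 0.17 in each and both passed (adjusted p = 0.00709 in DKO and 0.00901 in WT). Its level was 4.97 in cDC1, and its means were 7.12 in activated and 6.15 in resting DKO cells and 7.68 in activated and 6.74 in resting WT cells. From high to low the groups stood in the order WT activated, DKO activated, WT resting, DKO resting and cDC1, and the arrays of each pair of cDC2 neighbours in that order overlapped.

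Aim2, the cytosolic DNA sensor (cluster 10351867), read 9.81 and 9.02 in activated DKO cells, against 8.82 and 8.54 at rest, and 9.72 and 9.53 in activated WT cells, against 9.34 and 9.12 at rest. The activated arrays lay above the resting ones in both genotypes, though DKO activated replicate 2 exceeded the nearer resting array by less than the spread within its own group. The difference of 0.73 ± 0.26 in DKO cells did not pass (adjusted p = 0.114), nor did that of 0.40 ± 0.26 in WT cells (adjusted p = 0.352). With the block, Aim2 passed in DKO (adjusted p = 0.0121) and not in WT cells (adjusted p = 0.0857). Without DKO activated replicate 2 it passed in DKO cells without the block as well (1.13, adjusted p = 0.0404), and without DKO activated replicate 1 it stood at 0.34 (adjusted p = 0.355). It read 9.55 in cDC1 and had means of 9.41 in activated and 8.68 in resting DKO cells and of 9.63 in activated and 9.23 in resting WT cells. In the order WT activated, cDC1, DKO activated, WT resting and DKO resting, the last was the 1 group whose arrays stood clear of its neighbour.

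Pycard, which codes for the adaptor ASC (cluster 10568355), differed more between replicates than between states. It read 7.10 and 7.66 in activated DKO cells, against 6.77 and 7.28 at rest, and 6.90 and 8.24 in activated WT cells, against 6.96 and 7.55 at rest. The groups overlapped throughout, and the differences of 0.35 ± 0.47 in DKO and 0.31 ± 0.47 in WT cells did not pass (adjusted p = 0.654 and 0.703), also not with the block (adjusted p = 0.218 and 0.279). Pycard read 7.75 in cDC1, the highest level of the 5 groups, and averaged 7.03 in resting DKO cells, the lowest, and neighbours in between overlapped.

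Casp1, the caspase that matures IL-1beta (cluster 10582985), read 9.95 and 9.64 in activated DKO cells, against 9.08 and 8.93 at rest. In WT cells it read 9.95 and 10.02 after activation, against 9.04 and 9.57 at rest. Activated arrays lay above resting ones in both genotypes. The rise of 0.79 ± 0.20 in DKO cells passed (adjusted p = 0.048), while the difference of 0.68 ± 0.20 in WT cells did not (adjusted p = 0.0782) and did with the block (adjusted p = 0.0339). The DKO call was lost when any 1 of its 4 arrays was left out: the adjusted p was 0.210 without DKO activated replicate 1, 0.0831 without DKO activated replicate 2, 0.128 without DKO resting replicate 1 and 0.199 without DKO resting replicate 2. Without WT resting replicate 2, the array that stood apart for interferon-stimulated genes, the WT difference was 0.95 and passed (adjusted p = 0.0463), and without WT resting replicate 1 it was 0.41 (adjusted p = 0.254). Casp1 read 8.20 in cDC1, and its means were 9.79 in activated and 9.01 in resting DKO cells and 9.98 in activated and 9.30 in resting WT cells. From high to low the order was WT activated, DKO activated, WT resting, DKO resting and cDC1, and the DKO and WT arrays of each state overlapped or touched.

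Casp4, which codes for caspase-11 (cluster 10582997), had the smallest adjusted p of the members in both genotypes. It read 10.19 and 10.04 in activated DKO cells, against 7.79 and 7.49 in resting DKO cells, and 10.12 and 10.20 in activated WT cells, against 8.0 and 8.70 in resting WT cells. The 4 activated arrays lay between 10.04 and 10.20, above every resting array. The rise was 2.48 ± 0.23 in DKO (adjusted p = 0.00426) and 1.81 ± 0.23 in WT cells (adjusted p = 0.0113). In DKO cells it passed without each of the 4 arrays in turn, at 2.33 to 2.62 with adjusted p from 0.0244 to 0.0414. In WT cells it passed without either resting array, at 1.46 (adjusted p = 0.0331) without replicate 1 and at 2.16 (adjusted p = 0.0117) without replicate 2, and not without activated replicate 1 (1.85, adjusted p = 0.0533) or replicate 2 (1.77, adjusted p = 0.0846). Casp4 read 7.43 in cDC1, and its means were 10.12 in activated and 7.64 in resting DKO cells and 10.16 in activated and 8.35 in resting WT cells. The activated genotypes overlapped, while WT resting, DKO resting and cDC1 followed below them without overlap. Of the promoter windows above, that of Casp4 held the NF-kappaB matches.

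Casp8, the caspase of death receptors (cluster 10346564), read 9.41 and 9.70 in activated DKO cells, against 8.87 and 9.32 at rest, and 9.60 and 10.01 in activated WT cells, against 8.92 and 9.58 at rest. Replicate 2 exceeded replicate 1 in each group by 0.29 to 0.65, about as much as the states differed. The differences of 0.46 ± 0.27 in DKO and 0.56 ± 0.27 in WT cells did not pass (adjusted p = 0.304 and 0.231) and both passed with the block (adjusted p = 0.0159 and 0.00946). With 1 array left out they ran from 0.24 to 0.68 in DKO and from 0.23 to 0.88 in WT cells, in each genotype lowest without resting replicate 1 and highest without resting replicate 2. It read 8.91 in cDC1, with means of 9.55 in activated and 9.09 in resting DKO cells and of 9.81 in activated and 9.25 in resting WT cells. From high to low the order was WT activated, DKO activated, WT resting, DKO resting and cDC1, and each neighbouring pair overlapped.

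Gsdmd, the pore former (cluster 10424731), read 8.90 and 9.43 in activated DKO cells, against 7.82 and 8.82 at rest, and 8.82 and 9.54 in activated WT cells, against 7.84 and 8.98 at rest. In DKO cells the lower activated array just exceeded the higher resting one, and in WT cells the states overlapped. The differences of 0.84 ± 0.50 in DKO and 0.78 ± 0.50 in WT cells missed the threshold (adjusted p = 0.300 and 0.346) and passed with the block, which took the gap between replicates out of the SE (0.15 in each, adjusted p = 0.00721 and 0.0107). With 1 array left out they ran from 0.34 to 1.34 in DKO and from 0.21 to 1.35 in WT cells, again lowest without resting replicate 1 and highest without resting replicate 2. Gsdmd read 8.45 in cDC1, with means of 9.17 in activated and 8.32 in resting DKO cells and of 9.18 in activated and 8.41 in resting WT cells. The arrays of the genotypes overlapped within each state, with cDC1 inside the range of the resting cDC2 arrays.

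Ripk3, the kinase that activates MLKL (cluster 10420198), was the member with the narrowest range, 7.36 to 7.94 over all 9 arrays, and the 1 member that stood lower after activation in all 4 pairs. It read 7.60 and 7.36 in activated DKO cells, against 7.73 and 7.67 at rest, and 7.63 and 7.51 in activated WT cells, against 7.91 and 7.54 at rest. The differences of -0.22 ± 0.15 in DKO and -0.15 ± 0.15 in WT cells did not pass (adjusted p = 0.377 and 0.540), nor did they with the block (adjusted p = 0.134 and 0.273). The 95% intervals of -0.58 to 0.15 in DKO and -0.52 to 0.21 in WT cells do not reach a rise of the size seen for Casp1. Ripk3 read 7.94 in cDC1, with means of 7.48 in activated and 7.70 in resting DKO cells and of 7.57 in activated and 7.72 in resting WT cells. From high to low the order was cDC1, WT resting, DKO resting, WT activated and DKO activated, with overlap between the genotypes in each state and none between DKO resting and WT activated.

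Mlkl, the executioner of necroptosis and the substrate of RIPK3 (cluster 10581813), read 8.39 and 8.60 in activated DKO cells, against 5.68 and 6.22 at rest, the lower of which lay under the brightness threshold. In activated WT cells it read 8.79 and 9.53, against 6.09 and 7.60 at rest. Every activated array lay above every resting one in both genotypes. The rise was 2.55 ± 0.50 in DKO (adjusted p = 0.0249) and 2.31 ± 0.50 in WT cells (adjusted p = 0.0403). When 1 array was left out, the DKO value stayed between 2.28 and 2.82 and passed in none of the 4 cases (adjusted p = 0.108 and 0.100 without activated replicates 1 and 2, 0.115 and 0.0967 without resting replicates 1 and 2). The WT value passed without resting replicate 2 (3.07, adjusted p = 0.0226), and it was 1.56 (adjusted p = 0.110) without resting replicate 1, 2.68 (adjusted p = 0.0903) without activated replicate 1 and 1.95 (adjusted p = 0.172) without activated replicate 2. With the block both genotypes passed (adjusted p = 0.00137 and 0.00252). Mlkl read 5.77 in cDC1, and its means were 8.50 in activated and 5.95 in resting DKO cells and 9.16 in activated and 6.85 in resting WT cells. The activated genotypes did not overlap, while WT resting overlapped DKO resting and cDC1 lay between the DKO resting arrays.

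**Figure D2:**
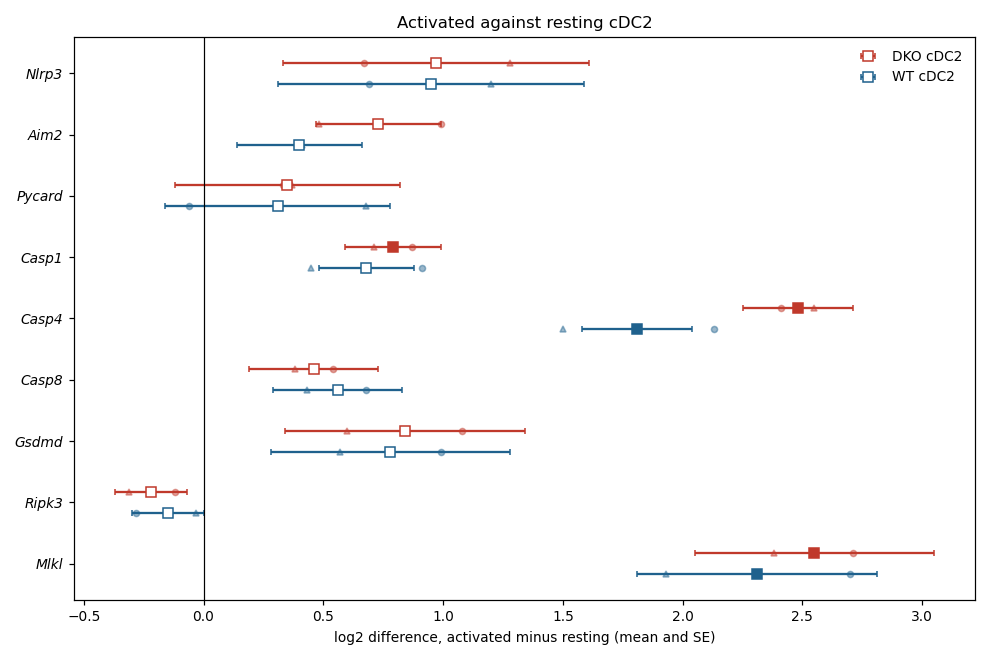
Log2 difference between activated and resting cDC2 (x axis) for each gene (y axis), DKO above WT; squares are the limma estimate with its SE, filled where adjusted p passed the threshold, and faint circles and triangles are the differences of replicates 1 and 2. Casp4 and Mlkl sit at 1.81 to 2.55 with filled squares in both genotypes, and Ripk3 is the 1 gene with all values below 0.

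The response did not differ detectably between the genotypes for any member. The interaction, DKO response minus WT response, passed for 0 of 9 members and for 0 of all genes by limma (0%), with 0 members and 121 genes (1.13%) at an unadjusted p under 0.05, and for 0 with the block. It was widest for Casp4, at 0.67 ± 0.33 (unadjusted p = 0.0873, adjusted p = 1.0), with a 95% interval of -0.13 to 1.46. It was 1.02 without WT resting replicate 1 and 0.31 without WT resting replicate 2, the bounds over the 8 arrays left out in turn. For Mlkl the interaction was 0.24 ± 0.71 and for Casp1 0.11 ± 0.28. The interval for Mlkl, -1.49 to 1.96, holds a doubling in either direction.

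The second question was whether loss of BATF and BATF3 changes these genes within a state. None of the 9 passed in resting cells, in activated cells or in the mean of both states, by limma with or without the block, where 0.0186% of all genes passed in each comparison without the block (either direction) and 0.736%, 0.569% and 5.58% with it. The targeted genes missed the threshold without the block too. In activated cells Batf differed by -2.79 ± 0.54 (limma adjusted p = 0.457) and Batf3 by -2.47 ± 0.45 (limma adjusted p = 0.451). Missing it is therefore no sign that a member was unchanged. In the mean of states with the block, Batf and Batf3 passed (limma adjusted p = 0.0161 for each). At an unadjusted p under 0.05 there was 1 member in resting cells, Casp4, and 0 in the other comparisons, where 6.59% of all genes lay under it in resting cells, 5.95% in activated cells and 10.8% in the mean. With the block there were 4 members in resting cells, 3 in activated cells and 4 in the mean, where the shares of all genes were 15.8%, 14.6% and 23.4%. All 9 estimates were below 0 in both states (under median centring that of Gsdmd in activated cells was 0.00), where 45.7% of all genes lay below 0 in resting and 47.0% in activated cells and 31.2% in both. No member had DKO below WT in both same-numbered pairs of one state and above it in both pairs of the other, as 6.19% of all genes did. Both DKO arrays lay below both WT arrays for 2 members at rest (13.4% of all genes) and for 1 after activation (13.5%). The median over the members was -0.30 in resting cells and -0.19 in activated cells, against 0.01 over all genes in each. Of the 10 cell type marker lists, 5 had a lower mean in DKO than in WT cells in all 4 same-numbered pairs. They were those of monocytes, macrophages, plasmacytoid dendritic cells, cDC1 and cDC2. These means include genes under the brightness threshold, and the genes of a list did not all move together. In the cDC2 list Cd4 was lower in DKO cells in all 4 pairs, and Flt3 was higher in all 4. In the macrophage list C1qa and C1qb were lower in all 4 pairs, and Spic and Timd4 were higher in both resting pairs. Of the 9 members, 3 were lower in all 4 pairs. The monocyte list had means of 6.42 and 6.17 in activated DKO cells, against 6.58 and 6.45 in activated WT cells, and of 6.59 and 6.44 in resting DKO cells, against 6.92 and 6.74 in resting WT cells. The macrophage list had 6.34 and 6.40 in activated DKO cells, against 6.58 and 6.59 in activated WT cells, and 6.41 and 6.25 in resting DKO cells, against 6.48 and 6.55 in resting WT cells. The plasmacytoid list had 7.51 and 7.65 in activated DKO cells, against 7.71 and 7.79 in activated WT cells, and 7.17 and 7.40 in resting DKO cells, against 7.58 and 7.92 in resting WT cells. Bst2 stands on both the plasmacytoid and the interferon-stimulated list. The part of these lists in the members' differences was not tested.

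At rest, Mlkl differed by -0.90 ± 0.50 (adjusted p = 0.926) between DKO cells (5.68 and 6.22) and WT cells (6.09 and 7.60), whose arrays overlapped. Casp4 differed by -0.71 ± 0.23 (unadjusted p = 0.0211, adjusted p = 0.650), with both DKO arrays below both WT arrays. Both differences lean on WT resting replicate 2, without which Mlkl stood at -0.14 and Casp4 at -0.36, and that array also had the high interferon-stimulated genes (11.07, against 9.24 to 9.78 on the other resting cDC2 arrays). The part of those genes in the difference was not tested. Without that array 6 of the 9 members stayed below 0, with a median of -0.14. Nlrp3 differed by -0.59 ± 0.64 and Aim2 by -0.55 ± 0.26, and both DKO arrays of Aim2 lay below both of its WT arrays. For Casp1 the difference was -0.30 ± 0.20, and -0.03 without WT resting replicate 2. Without that array Nlrp3 stood at -1.29, while without WT resting replicate 1 it stood at 0.12. The remaining 4 lay between -0.23 and -0.03 on all arrays, and without WT resting replicate 2 between -0.21 for Ripk3 and 0.49 for Gsdmd.

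In activated cells the estimates were closer to 0 for Casp4, at -0.04 ± 0.23, and Gsdmd, at -0.02 ± 0.50. Mlkl differed by -0.66 ± 0.50, with 8.39 and 8.60 in DKO cells against 8.79 and 9.53 in WT cells and no overlap, and Nlrp3 by -0.56 ± 0.64. Both depend on single arrays: without WT activated replicate 2 Mlkl stood at -0.29 and Nlrp3 at -1.0, and without WT activated replicate 1 Mlkl stood at -1.03 and Nlrp3 at -0.11. Casp8, Nlrp3 and Mlkl were lower in DKO cells in all 4 pairs of arrays that share a state and a replicate number, as 13.3% of all genes were. Averaged over the states with the block, which compares arrays of the same number, the members nearest the threshold were Nlrp3 at -0.57 (adjusted p = 0.0503), Mlkl at -0.78 (adjusted p = 0.0718) and Aim2 at -0.38 (adjusted p = 0.0983).

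**Figure D3:**
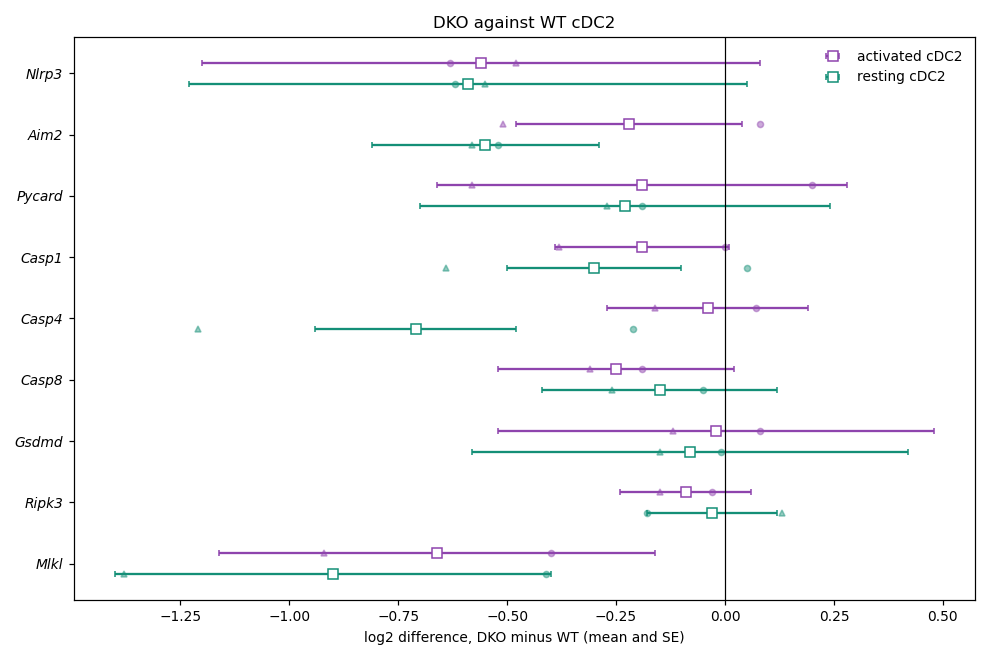
Log2 difference between DKO and WT cDC2 (x axis) for each gene (y axis), activated cells above resting cells; squares are the limma estimate with its SE (open, since none passed), circles and triangles the differences of replicates 1 and 2. All squares lie left of 0, from -0.90 for Mlkl at rest to -0.02 for Gsdmd in activated cells, while single pairs of Casp1, Casp4, Aim2, Pycard, Gsdmd and Ripk3 reach 0 or beyond.

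The 2 arrays of a group differed by as much as the states did for several members, and did so in the same direction in every cDC2 group. Replicate 2 stood above replicate 1 in all 4 groups for Casp8, Gsdmd, Pycard and Mlkl, a pattern that 23.9% of all genes shared. Replicate 1 stood above replicate 2 in all 4 groups for Nlrp3, Aim2 and Ripk3, as for 19.0% of all genes. The gap for Nlrp3 was -0.73 and -1.34 (replicate 2 minus replicate 1) in activated and resting DKO cells and -0.89 and -1.41 in activated and resting WT cells. For Gsdmd it was 0.52 and 1.00 in activated and resting DKO cells and 0.72 and 1.14 in activated and resting WT cells. The labels do not say what the number stands for. Casp1 and Casp4 had no such order: replicate 2 was lower in both DKO groups and higher in both WT groups.

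**Figure D4:**
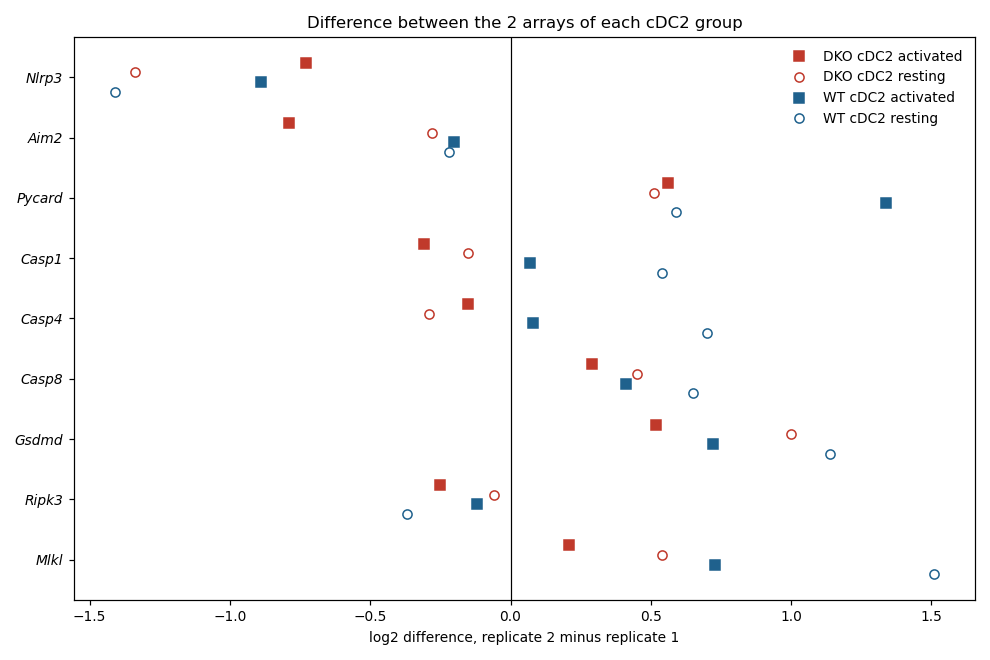
Replicate 2 minus replicate 1 on the log2 scale (x axis) for each gene (y axis) in the 4 cDC2 groups; red marks DKO, blue WT, squares activated and open circles resting cells. The 4 marks lie on the same side of 0 for 7 of the 9 genes, left for Nlrp3, Aim2 and Ripk3 and right for Pycard, Casp8, Gsdmd and Mlkl.

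The third comparison set the 1 array of resting cDC1 against 2 of resting WT cDC2, with the spread of the lone array assumed to be that of the cDC2 groups. Casp1 was lower in cDC1, at 8.20 against 9.04 and 9.57 in cDC2, a difference of -1.10 ± 0.24 (adjusted p = 0.0325). It was the 1 member of 9 that passed, where 6.56% of all genes were lower and 13.6% passed in either direction. Without WT cDC2 resting replicate 2 the difference was -0.84 and did not pass (adjusted p = 0.0663), and without replicate 1 it was -1.37 (adjusted p = 0.0234). Nlrp3 read 4.97 in cDC1, under the brightness threshold, against 7.44 and 6.03 in cDC2, and the difference of -1.77 ± 0.78 did not pass (adjusted p = 0.190). Casp4 read 7.43, against 8.0 and 8.70, with a difference of -0.92 ± 0.29 (adjusted p = 0.0861) that passed without WT cDC2 resting replicate 1 (-1.27, adjusted p = 0.0263) and was -0.56 without replicate 2 (adjusted p = 0.137). Mlkl read 5.77 in cDC1, against 6.09 and 7.60 in cDC2 (-1.07 ± 0.62, adjusted p = 0.305), and the difference was -0.32 without replicate 2 (adjusted p = 0.690) and -1.83 without replicate 1 (adjusted p = 0.0648). That of Nlrp3 was -2.47 without replicate 2 and -1.07 without replicate 1, neither past the threshold. The mean over the 23 interferon-stimulated genes was lowest on the cDC1 array too, at 8.89, against 9.78 and 11.07 in resting WT cDC2, and its part in these differences was not tested. Aim2, Ripk3 and Pycard read 9.55, 7.94 and 7.75 in cDC1, each above both resting WT cDC2 arrays, by differences of 0.32, 0.22 and 0.49 that did not pass, and Gsdmd lay between those arrays. In all, the cDC1 array lay below both WT cDC2 arrays for 5 members (40.0% of all genes) and above both for 3 (38.1%).

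Around the members, 91 further genes of these pathways were listed, of which 81 had a feature with 1 symbol and 70 were bright enough to be tested. After activation, 18 of the 70 were higher and 4 lower in DKO cells, and 16 were higher and 2 lower in WT cells, where 5.82% of all genes were higher and 7.90% lower in DKO cells and 3.97% higher and 6.57% lower in WT cells. The median over the 70 was 0.25 in DKO and 0.21 in WT cells, against -0.09 in DKO and -0.07 in WT cells over all genes. With the block 41 passed in DKO cells, 33 of them higher, where 38.0% of all genes passed and 13.0% were higher. In WT cells 35 passed, 29 of them higher, where 35.3% of all genes passed and 11.4% were higher. These shares of all genes also stand beside the activation counts of each list below. With 1 array left out the counts were lower. In DKO cells 5 genes passed without activated replicate 1, 12 without activated replicate 2, 11 without resting replicate 1 and 4 without resting replicate 2. In WT cells 3 and 2 passed without activated replicates 1 and 2, and 5 and 16 without resting replicates 1 and 2.

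Of 12 other sensors listed, 9 had a feature and 5 were tested. In DKO cells 2 of those were lower and 0 higher, in WT cells 1 lower and 0 higher. Among all genes, 7.90% were lower and 5.82% higher in DKO cells, and 6.57% lower and 3.97% higher in WT cells. By those shares, 0 higher of 5 says nothing particular about sensors. Mefv, which codes for the sensor pyrin, fell in both, by 0.97 ± 0.10 in DKO (adjusted p = 0.00479) and by 0.58 ± 0.10 in WT cells (adjusted p = 0.0250). It read 7.60 and 7.59 in activated DKO cells, against 8.47 and 8.66 at rest, and 7.60 and 7.69 in activated WT cells, against 8.22 and 8.23 at rest. Nlrp10 was lower in activated DKO cells (-0.74 ± 0.13, adjusted p = 0.0185), where it read 5.42 and 5.07, against 5.94 and 6.03 at rest. Resting DKO cells were the 1 group whose mean passed the brightness threshold, and Nlrp10 was tested only through that group, so this call, 1 of the 2 lower, follows in part from the filter. Nlrp1a, Nlrp1b, Nlrp6 and Nlrc4 stayed under the brightness threshold on all arrays.

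Genes of priming and licensing gave the widest rises: of 15 tested, 6 were higher and 1 lower in DKO cells and 5 higher and 0 lower in WT cells. With the block the counts were 7 higher and 3 lower in each. The guanylate-binding proteins, which open bacterial vacuoles and coat LPS for caspase-11, were among them. Gbp7 rose by 4.44 ± 0.58 in DKO (adjusted p = 0.00841) and by 3.20 ± 0.58 in WT cells (adjusted p = 0.0274), and Gbp5 by 3.77 ± 0.51 in DKO (adjusted p = 0.00868) and by 2.47 ± 0.51 in WT cells (adjusted p = 0.0354). Gbp3 rose by 2.91 ± 0.49 in DKO (adjusted p = 0.0157) and by 2.10 ± 0.49 in WT cells (adjusted p = 0.0462). Gbp5 read 12.25 and 12.30 in activated DKO cells, against 8.52 and 8.49 at rest, and 12.26 and 12.39 in activated WT cells, against 8.96 and 10.74 at rest. The higher WT resting value was again replicate 2. Without that array the WT rises were 4.21 for Gbp7 (adjusted p = 0.00209), 3.36 for Gbp5 (adjusted p = 0.00158) and 2.95 for Gbp3 (adjusted p = 0.00216), and without WT resting replicate 1 they were 2.20, 1.58 and 1.26 and passed as well. Gm12250, which codes for an immunity-related GTPase, rose by 2.99 ± 0.51 in DKO cells (adjusted p = 0.0162), and its difference of 2.0 ± 0.51 in WT cells missed the threshold (adjusted p = 0.0567) and passed with the block (adjusted p = 0.0150). Irf1, the transcription factor that drives several of these genes, rose by 2.14 ± 0.16 in DKO (adjusted p = 0.00219) and by 2.32 ± 0.16 in WT cells (adjusted p = 0.00311). Myd88, the adaptor of Toll-like receptors, rose by 1.45 ± 0.24 in DKO (adjusted p = 0.0149) and by 1.29 ± 0.24 in WT cells (adjusted p = 0.0280). Ticam1, which codes for the TRIF adaptor, was lower in activated DKO cells (-0.68 ± 0.11, adjusted p = 0.0146), and in WT cells it passed with the block alone (-0.44, adjusted p = 0.0114). Without WT resting replicate 2, 16 pathway genes passed in WT cells, while Mefv, Hmgb1, Tnf, Tnfrsf1a, Casp6, Serpinb1a and Serpinb9 missed the threshold (adjusted p from 0.0720 to 0.149).

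Among 6 tested genes of other gasdermins, membrane rupture and repair, 0 passed in either genotype by limma, with 0 at an unadjusted p under 0.05 and 1, Chmp4b, with the block. Chmp4b, a subunit of the ESCRT machinery that reseals gasdermin pores, differed by 0.59 ± 0.26 in DKO and 0.52 ± 0.26 in WT cells (block adjusted p = 0.00426 and 0.00753). Ninj1, which ruptures the membrane after pores have formed, lay between 10.18 and 10.68 on all cDC2 arrays.

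Of 8 released cytokines and antagonists, 1 was higher and 1 lower in DKO cells and 2 higher and 1 lower in WT cells. With the block the counts were 5 higher and 1 lower in DKO cells and 4 higher and 1 lower in WT cells. Il1a and Il1rn passed in both genotypes with the block alone, Il1a at 1.47 in DKO (block adjusted p = 0.00616) and 1.5 in WT cells (block adjusted p = 0.00692) and Il1rn at 0.49 in DKO (block adjusted p = 0.0111) and 0.53 in WT cells (block adjusted p = 0.00995). Il1a was tested only through the activated groups, with resting arrays at 4.48 to 5.0 and so under the brightness threshold, and the size of its difference is uncertain. Il18bp, which codes for the decoy that binds IL-18, rose by 1.58 ± 0.16 in DKO (adjusted p = 0.00479) and by 1.20 ± 0.16 in WT cells (adjusted p = 0.0135). Hmgb1, which codes for a nuclear protein released by dying cells, fell by 0.56 ± 0.10 in DKO (adjusted p = 0.0174) and by 0.41 ± 0.10 in WT cells (adjusted p = 0.0480). Its probes were dim: it read 5.45 and 5.61 in activated DKO cells, against 6.09 and 6.10 at rest, and 5.33 and 5.45 in activated WT cells, against 5.81 and 5.80 at rest, so all 4 WT arrays lay under the brightness threshold. Il33, which codes for an alarmin of the IL-1 family, read 5.63 and 5.20 in activated DKO cells, against 4.89 and 4.73 at rest, and 6.36 and 6.17 in activated WT cells, against 4.84 and 4.91 at rest. Its difference was 0.61 ± 0.16 in DKO cells (adjusted p = 0.0581, and 0.0113 with the block) and 1.39 ± 0.16 in WT cells (adjusted p = 0.00945), and the interaction of -0.78 ± 0.23 did not pass (unadjusted p = 0.0137, adjusted p = 1.0). Activated WT cells were the 1 group above the brightness threshold, and Il33 was tested only through that group, so its call in WT cells follows in part from the filter and the sizes are uncertain. The caspase-1 substrates Il1b and Il18 differed by 0.80 ± 0.31 and 0.23 ± 0.43 in DKO and by 0.47 ± 0.31 and 0.22 ± 0.43 in WT cells, none past the threshold, and with the block Il1b passed in DKO cells (adjusted p = 0.0175).

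Of 28 tested genes of the death receptor and necroptosis complexes, 7 were higher and 0 lower in DKO cells and 5 higher and 0 lower in WT cells. With the block the counts were 16 higher and 2 lower in DKO cells and 12 higher and 1 lower in WT cells. Tnf, the ligand that can start necroptosis, rose by 3.02 ± 0.64 in DKO (adjusted p = 0.0306) and by 2.74 ± 0.64 in WT cells (adjusted p = 0.0469), and Tnfrsf1a, its receptor, by 1.32 ± 0.20 in DKO (adjusted p = 0.0128) and by 1.22 ± 0.20 in WT cells (adjusted p = 0.0225). Some restraints on the same complexes rose beside them: Xiap, an inhibitor of caspases and of RIPK3-driven death, by 1.14 ± 0.14 in DKO (adjusted p = 0.00695) and 0.87 ± 0.14 in WT cells (adjusted p = 0.0192), and Tnfaip3, which codes for the ubiquitin editor A20, by 0.94 ± 0.12 in each (adjusted p = 0.00785 and 0.0108). Zbp1, the nucleic acid sensor that binds RIPK3, read 11.25 and 11.56 in activated DKO cells, against 8.65 and 9.73 at rest, and 11.20 and 11.69 in activated WT cells, against 8.78 and 11.30 at rest. It passed in neither genotype (adjusted p = 0.114 in DKO and 0.287 in WT cells) and passed with the block in DKO cells (2.22, adjusted p = 0.0140), and its WT resting replicate 2 sat among the activated arrays.

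Of the list of other caspases, which also holds Apaf1, a gene that is no caspase, 4 genes were tested. Apaf1, which codes for the scaffold of the apoptosome, rose by 1.72 ± 0.31 in DKO (adjusted p = 0.0193) and by 1.58 ± 0.31 in WT cells (adjusted p = 0.0330), and Casp6 rose in WT cells (0.57 ± 0.14, adjusted p = 0.0488), with 0.34 ± 0.14 in DKO cells (adjusted p = 0.145, and 0.0829 with the block). Of 4 tested inhibitors, 3 were higher in DKO cells and 2 in WT cells. Trim30a, which codes for a restraint on NLRP3, rose by 1.37 ± 0.30 in DKO cells (adjusted p = 0.0342), and its difference of 0.84 ± 0.30 in WT cells missed the threshold (adjusted p = 0.125) and passed with the block (adjusted p = 0.0294). Serpinb9, which codes for a granzyme B inhibitor, rose by 1.24 ± 0.17 in DKO (adjusted p = 0.00968) and by 0.88 ± 0.17 in WT cells (adjusted p = 0.0328). Serpinb1a, which codes for an inhibitor of neutrophil proteases and inflammatory caspases, rose by 1.07 ± 0.21 in DKO (adjusted p = 0.0256) and by 0.91 ± 0.21 in WT cells (adjusted p = 0.0468). Its resting WT arrays, at 5.36 and 5.34, and 1 resting DKO array, at 5.71, lay under the brightness threshold.

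**Figure D5:**
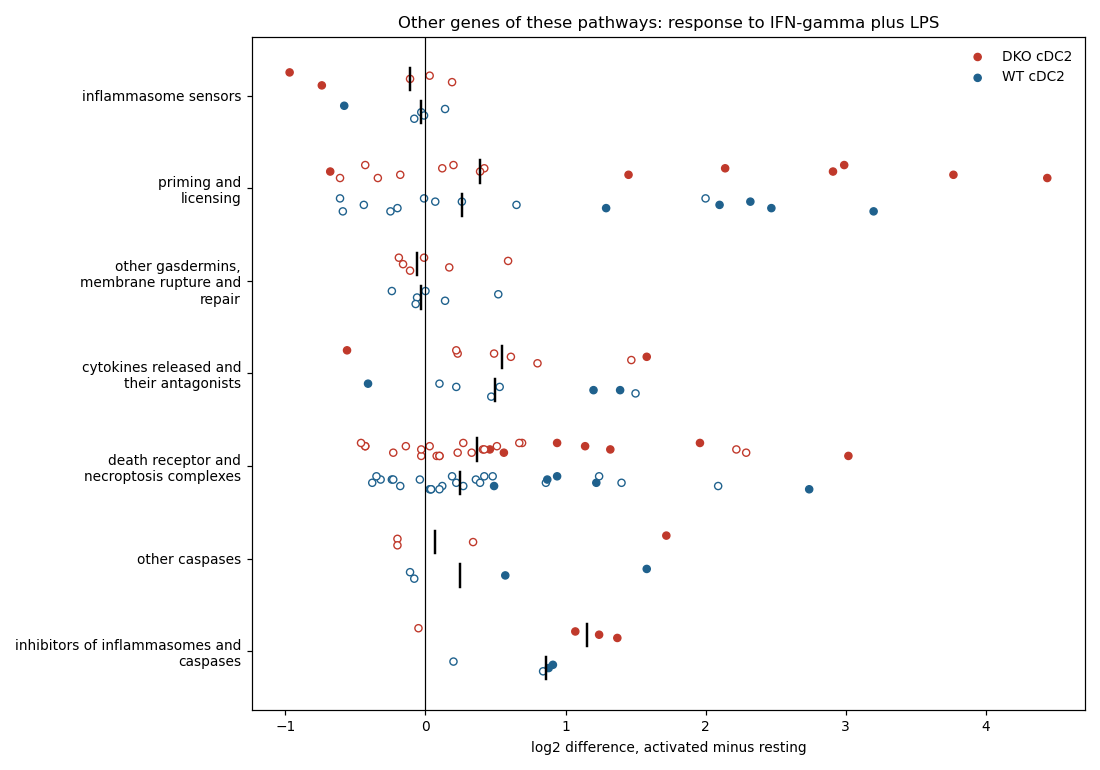
Log2 difference between activated and resting cDC2 (x axis) of the 70 tested pathway genes, by list (y axis), DKO above WT; filled points passed the threshold and black bars are list medians. Gbp7 and Gbp5 form the far right of the priming list, at up to 4.44, while the medians of the sensors and of the gasdermin, rupture and repair genes lie between -0.11 and -0.03.

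Between genotypes, 0 of the 70 pathway genes passed by limma in resting cells, activated cells or their mean, and 10, 5 and 11 had an unadjusted p under 0.05, where 6.59%, 5.95% and 10.8% of all genes did. Among the genes with the smallest p of their lists were Nlrp10 (0.46 ± 0.13, tested only through resting DKO cells), Mefv (0.34 ± 0.10) and Gbp7 (-1.56 ± 0.58) in resting cells and Il33 (-0.85 ± 0.16, its DKO arrays under the brightness threshold) and Serpinb1a (0.78 ± 0.21) in activated cells, with adjusted p from 0.457 to 0.704. With the block 0 passed in resting cells and 0 in activated cells, and 5 of 70 did in the mean of both states, where 5.58% of all genes passed. In that mean Serpinb1a (0.71 ± 0.15, adjusted p = 0.0456), Il1r2 (0.65 ± 0.14, adjusted p = 0.0493) and Birc2 (0.45 ± 0.09, adjusted p = 0.0370) were higher in DKO cells and Tnfrsf1a (-0.42 ± 0.07, adjusted p = 0.0309) lower. The remaining gene was Il33 (-0.46 ± 0.09, adjusted p = 0.0380), which entered the test through activated WT cells and was under the brightness threshold in the other groups. Without WT resting replicate 1, 4 pathway genes passed in resting cells without the block, Gbp7 among them (-2.57, adjusted p = 0.0463). Without WT resting replicate 2, the array with the high interferon-stimulated genes, 0 passed and Gbp7 stood at -0.56 (adjusted p = 0.808).

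Against resting WT cDC2, the cDC1 array had 3 pathway genes higher and 10 lower of 70, where 7.08% of all genes were higher and 6.56% lower. Serpinb1a read 9.01 in cDC1, against 5.36 and 5.34 in WT cDC2, under the brightness threshold (3.66 ± 0.26, adjusted p = 0.00106), and Casp6 was higher by 1.17 ± 0.17 (adjusted p = 0.00868). On the lower side stood Il1rn, which codes for the IL-1 receptor antagonist, at 7.65 in cDC1 against 11.07 and 10.70 in WT cDC2 (-3.24 ± 0.32, adjusted p = 0.00305). Nek7, the partner that NLRP3 needs to assemble, differed by -1.54 ± 0.20 (adjusted p = 0.00695), beside Nlrp3 itself, which was under the brightness threshold in cDC1. Xiap and Tnfaip3 were lower as well, at -1.35 ± 0.17 (adjusted p = 0.00579) and -1.05 ± 0.15 (adjusted p = 0.00829). The others lower in cDC1 were Il18bp, Naip2, Ticam2, Nlrp10, Ticam1 and Tab2, at -1.03 to -0.44, and P2rx7, the ATP-gated channel that can trigger NLRP3, was higher by 0.52 ± 0.12 (adjusted p = 0.0421). Nlrp10 lay under the brightness threshold in both subsets compared, and P2rx7 lay under it in every cDC2 group and was tested only through cDC1, so neither call is a firm one. Without WT resting replicate 2, Serpinb1a, Casp6, Il1rn, Nek7, Xiap, Tnfaip3 and Ticam2 still passed, and Il18bp, Naip2, Nlrp10, Ticam1, Tab2 and P2rx7 did not.

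Outside the lists, the genes whose pattern was most like that of the 3 members with the widest range of group means were found by Pearson correlation over the 9 arrays, which fall into resting and activated cells and share replicate numbers, so the values are descriptions. For Mlkl (range 3.39) they were Ogfr (r = 0.990), Sptlc2 (r = 0.990) and Tap1 (r = 0.985). For Casp4 (range 2.73) they were Trim26 (r = 0.995), Rapgef2 (r = 0.993) and Larp1 (r = 0.992). For Nlrp3 (range 2.71) they were Hspa5 (r = 0.986), Rgs1 (r = 0.983) and 1810055G02Rik (r = 0.981). Hspa5, the endoplasmic reticulum chaperone BiP, read 11.18 and 10.86 in activated DKO, 10.84 and 10.16 in resting DKO, 11.51 and 11.17 in activated WT and 11.24 and 10.69 in resting WT cells, with replicate 1 the higher array throughout, as for Nlrp3. Tap1, which codes for a peptide transporter of MHC class I loading, read 11.49 and 12.06 in resting WT cells and had its higher value in replicate 2, as Mlkl did.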

How the data were processed

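The members and the gene lists were chosen with earlier results of these data known, and no list is independent support. Per the submitters' processing notes, the authors ran RMA in Affymetrix Expression Console. The deposited table holds linear intensity, with 1 value for each transcript cluster on each array. RMA corrects background and brings arrays to a shared distribution: array medians ran from 53.4 to 55.6, and log2 values of the same rank differed between arrays by at most 0.31. A difference in total RNA is therefore not visible. The RNA inputs were very small, per the labels' protocols.

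Of 28853 clusters, 21789 carried 1 gene symbol and were kept, 1621 carried several and 5443 none. For 999 genes with several clusters the cluster of highest mean was used. Genes with a group mean above 61.3 (linear) in at least 1 group were tested, 10728 of 19938. Log2 values were tested two-sided by limma (version 3.58.1, lmFit then eBayes, under R 4.3.3), with a mean for each of 5 groups on 9 arrays, 4 residual and 2.35 prior degrees of freedom, and Benjamini-Hochberg adjustment over the genes tested. The fit was checked on simulated data with independent noise on each array. Deviations shared by replicate number were not part of that check.

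Replicate numbers come from the titles. Deviations of same-numbered arrays correlated at 0.454 or more in all 6 pairs of cDC2 groups, so the number was taken to pair the samples, from the data and not from the labels. The title of the cDC1 array carries no number, and no comparison with cDC1 was taken from the block fits.

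All 9 members are named. Of each list, up to 4 genes with the largest change past the threshold in WT activation are named for both genotypes, and up to 4 past it are for each comparison between genotypes or subsets. Where none passed, the text takes its examples from the 2 of smallest p. Further list genes named in the text (Il1b, Il18, Ninj1, Zbp1, Myd88, Gm12250, Trim30a, Il1a, Nlrp10, Ticam1, Il1r2, Birc2 and those under the brightness threshold) were chosen after their values were seen. Of 91 list genes, 10 had no feature with 1 symbol and were not analysed here. Alternatives changed the normalization, brightness filter, variance trend, array weights, cluster choice, arrays in the fit and block, and left out each array in turn.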

Additional observations from a re-analysis of the deposited data

Results flagged for a closer look

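For 4 of the 70 tested pathway genes and 0 of the 9 members, where 6.19% of all genes did so, DKO differed from WT cells one way in every same-numbered pair of resting arrays and the other way in every pair of activated arrays. Pgam5, which codes for a mitochondrial phosphatase first linked to necroptosis, differed between DKO and WT cells by 0.26 after activation and by -0.09 at rest. It read 6.74 and 6.70 in activated DKO cells, against 6.35 and 6.57 in activated WT cells, and 6.81 and 6.70 in resting DKO cells, against 6.96 and 6.73 in resting WT cells. Nlrx1, which codes for a mitochondrial member of the NLR family, differed by -0.17 after activation and by 0.08 at rest. It read 6.64 and 6.75 in activated DKO cells, against 6.88 and 6.85 in activated WT cells, and 6.78 and 6.71 in resting DKO cells, against 6.71 and 6.62 in resting WT cells. The difference between the states was tested by limma as an interaction and passed for none of them (0.35 ± 0.18, unadjusted p = 0.0946, for Pgam5 and -0.25 ± 0.13, unadjusted p = 0.0994, for Nlrx1, adjusted p = 1.0 for each). Fas, which codes for a death receptor, differed by -0.08 after activation and by 0.36 at rest (interaction -0.44 ± 0.69), and Ly96, which codes for the LPS-binding partner of TLR4, by -0.06 after activation and by 0.20 at rest (interaction -0.26 ± 0.29), both with an adjusted p of 1.0.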

How the results depend on the processing

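The activation calls of Casp4 and Mlkl in both genotypes held under quantile normalization, median centring, a stricter brightness filter, a variance trend, array weights and the mean of a gene's clusters, as did the cDC1 call of Casp1. Casp1 in DKO cells held under median centring, the stricter filter, array weights, the mean of clusters and the block, and was lost with quantile normalization (0.74, adjusted p = 0.0559), without a brightness filter (0.79, adjusted p = 0.0732), with a trend (0.79, adjusted p = 0.0534) and with only the arrays compared (0.79, adjusted p = 0.0622). Without a filter Mlkl missed the threshold in WT cells (2.31, adjusted p = 0.0652). With only the arrays compared, Casp4 (adjusted p = 0.0834) and Mlkl (adjusted p = 0.137) missed it there, and so did Casp1 in cDC1 (adjusted p = 0.278). Members called in WT activation numbered 2, against 1 without a filter, 0 with only the arrays compared, 6 with the replicate block and 0 to 3 with 1 array left out. In DKO activation they numbered 3, against 7 with the replicate block and 1 to 2 with 1 array left out. In cDC1 they numbered 1, against 0 with only the arrays compared and 0 to 2 with 1 array left out. Pathway genes called numbered 18 in WT activation, against 0 with only the arrays compared, 35 with the block and 2 to 16 with 1 array left out. In DKO activation they numbered 22, against 41 with the block and 4 to 12 with 1 array left out. Between genotypes they numbered 0, against 5 with the block in the mean of states, and with 1 array left out 0 to 4 at rest and 0 to 2 in the mean. In cDC1 they numbered 13, against 7 under the stricter filter, which tests fewer genes, and 0 with only the arrays compared. Fits with fewer arrays have fewer residual degrees of freedom: with 1 array left out, calls over all genes fell to 63 to 550 in WT activation, against 1131. Median centring turned Gsdmd between activated genotypes to 0.00. The block left 0 members called between genotypes. Aim2 in WT activation and Ripk3 and Pycard in both genotypes were called neither with the block nor without it.

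With 1 array left out, these differences crossed 0 among the members and the pathway genes picked by the naming rule, none of them past the threshold; pathway genes chosen after their values were seen, such as Il18, were not run here. In the WT response they were Ripk3 (-0.34 to 0.03) and Pycard (-0.36 to 0.98). In the interaction they were Casp1 (-0.16 to 0.38), Casp8 (-0.42 to 0.23), Nlrp3 (-0.67 to 0.73), Aim2 (-0.06 to 0.73), Mlkl (-0.52 to 0.99), Ripk3 (-0.24 to 0.12), Gsdmd (-0.50 to 0.64), Pycard (-0.63 to 0.71), Vps4a (-0.21 to 0.13) and Casp9 (-0.37 to 0.13). In DKO against WT at rest they were Casp8 (-0.48 to 0.17), Nlrp3 (-1.29 to 0.12), Ripk3 (-0.21 to 0.16), Gsdmd (-0.65 to 0.49), Pycard (-0.53 to 0.06), Chmp4b (-0.47 to 0.07) and Apaf1 (-0.62 to 0.27). In DKO against WT after activation they were Casp4 (-0.12 to 0.03), Aim2 (-0.61 to 0.18), Ripk3 (-0.21 to 0.03), Gsdmd (-0.38 to 0.34), Pycard (-0.86 to 0.48), Casp9 (-0.13 to 0.01) and Casp2 (-0.40 to 0.24). In DKO against WT in the mean of states they were Ripk3 (-0.15 to 0.03), Gsdmd (-0.33 to 0.24), Pycard (-0.55 to 0.12) and Apaf1 (-0.33 to 0.12). In cDC1 against cDC2 they were Gsdmd (-0.53 to 0.61). The number of arrays limits the precision throughout.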
